A study of Arabidopsis thaliana with 36 samples.

Results

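The chlorophyll synthesis genes described here are 10 Arabidopsis thaliana loci chosen by name from the published pathway, of 33602 loci in the count table, and all 10 passed the filter on low counts that left 20263 genes for testing. They are HEMA1 (AT1G58290), GUN4 (AT3G59400), CHLH (AT5G13630), CHLM (AT4G25080), CHL27 (AT3G56940), PORA (AT5G54190), PORB (AT4G27440), PORC (AT1G03630), CAO (AT1G44446) and CHLG (AT3G51820). Their transcripts were followed through a cold-memory experiment by RNA-seq of 36 libraries, 3 for each of 12 groups, from rosettes of the accessions N14, described by the submitters as cold tolerant, and Col-0, of intermediate tolerance. All plants were grown at 20 °C by day and 16 °C by night, the 28-day controls (C28) for 28 days. Primed plants (C28P3) then had 3 days at a constant 4 °C, lag plants (C28P3L7) a further 7 days at 20 °C by day and 18 °C by night, and triggered plants (C28P3L7T3) another 3 days at 4 °C. Plants given a first cold treatment at 35 days (C35P3) had the same 3 days at 4 °C, and their controls (C35) were grown for 35 days. Temperature and light changed together, because the cold chamber gave 90 µE of light against 200 µE in long-day growth (at least 200 µE in the lag), with a day length of 16 h in both, so the effects of cold and of less light cannot be told apart. Each library came from a pool of 5 replicate samples, labelled with 15 rosettes for C28 and C28P3 and with 4 for all others; the labels do not say whether that number is per sample or per pool. Between C28 and C28P3 and all other groups, plant age and rosette number therefore changed together. At sampling C28 and C28P3 plants were 28 and 31 days old, C35 and C35P3 plants 35 and 38, and lag and triggered plants 38 and 41. Each cold-treated group was thus older than its control, and the effects of cold and of this age difference cannot be told apart.

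Chlorophyll and heme share a pathway that starts from glutamate bound to its transfer RNA and runs through 5-aminolevulinic acid to protoporphyrin IX, where insertion of magnesium leads to chlorophyll and insertion of iron to heme. HEMA1 encodes glutamyl-tRNA reductase, the rate-limiting entry enzyme, and CHLH and GUN4 encode the largest subunit of magnesium chelatase and its activator. CHLM methylates magnesium protoporphyrin IX and CHL27 is a subunit of the cyclase that closes the fifth ring. The protochlorophyllide oxidoreductases PORA, PORB and PORC carry out the light-requiring reduction, CAO converts chlorophyllide a to the b form, and CHLG attaches the phytol tail. Free intermediates of the pathway are photosensitizers, and its genes are known targets of light, the circadian clock and plastid signals.

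The libraries held 17861514 to 31046237 counts. Counts of a gene are given as CPM, counts scaled to a common library size, here after TMM, and changes as log2 fold changes ± SE. The quasi-likelihood test of edgeR was fitted to all 36 libraries, with p adjusted by the Benjamini-Hochberg method over 20263 genes and a gene called at an adjusted p under 0.05. The p-values measure the spread between pools from 3 independent experiments. All 36 pairs of libraries within groups differed beyond counting noise, with a mean chi-square per gene of 8.20 to 102. The highest values, 85.3 to 102, were those of C35 replicate 3 with the other C35 libraries, in both accessions. Of 4 leaf marker genes (RBCS1A, RCA, LHCB1.3 and PSAD1), none was at 0 in any library, and their sum lay between 28800 and 62200 CPM at the end of the cold treatments, against 53200 to 85500 CPM in the other groups. The 4 root markers summed to 0.687 to 14.1 CPM at the end of the cold treatments and 10.1 to 133 CPM in the other groups, almost all of it PYK10, while EXPA7, COBL9 and LRX1 were at 0 in 31, 26 and 32 libraries. The part of either marker list in the changes below was not tested. In these bulk samples fewer cells with a transcript and less of it per cell cannot be told apart. The 4 floral markers AG, AP3, PI and SEP3 summed to 4.33 to 10.0 CPM in the 4 Col-0 groups of 35 days or later and to 0.125 to 1.07 CPM in the N14 groups and the Col-0 C28 and C28P3 groups. The 3 seed markers CRU3, CRA1 and SESA3 reached 17.3 CPM in Col-0 after cold at 35 days and at most 3.25 CPM in every other group.

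Per kilobase of annotated exon, CHL27 was the most abundant of the 10 transcripts, with a mean over the 12 groups of 1055 CPM per kb, followed by PORB with 571 and CHLH with 340.3 CPM per kb. GUN4 (205 CPM per kb), HEMA1 (183), CHLM (156) and CHLG (114) came next, and PORC (82.1), CAO (70.3) and PORA (14.6 CPM per kb) were the least abundant. Between neighbours in this order the ranges of the 12 group means overlapped, except at both ends: the lowest group mean of CHL27, 757 CPM per kb, lay above the highest of PORB, 720.2 CPM per kb, and the highest of PORA, 24.3 CPM per kb, lay below the lowest of CAO, 54.0 CPM per kb. The order of spread was different. The highest group mean was 8.57 times the lowest for PORA, 3.59 times for CHLM and 2.45 times for CHLH, whereas it was 1.48 times for PORC and 1.38 times for CHLG.

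**Figure D1:**
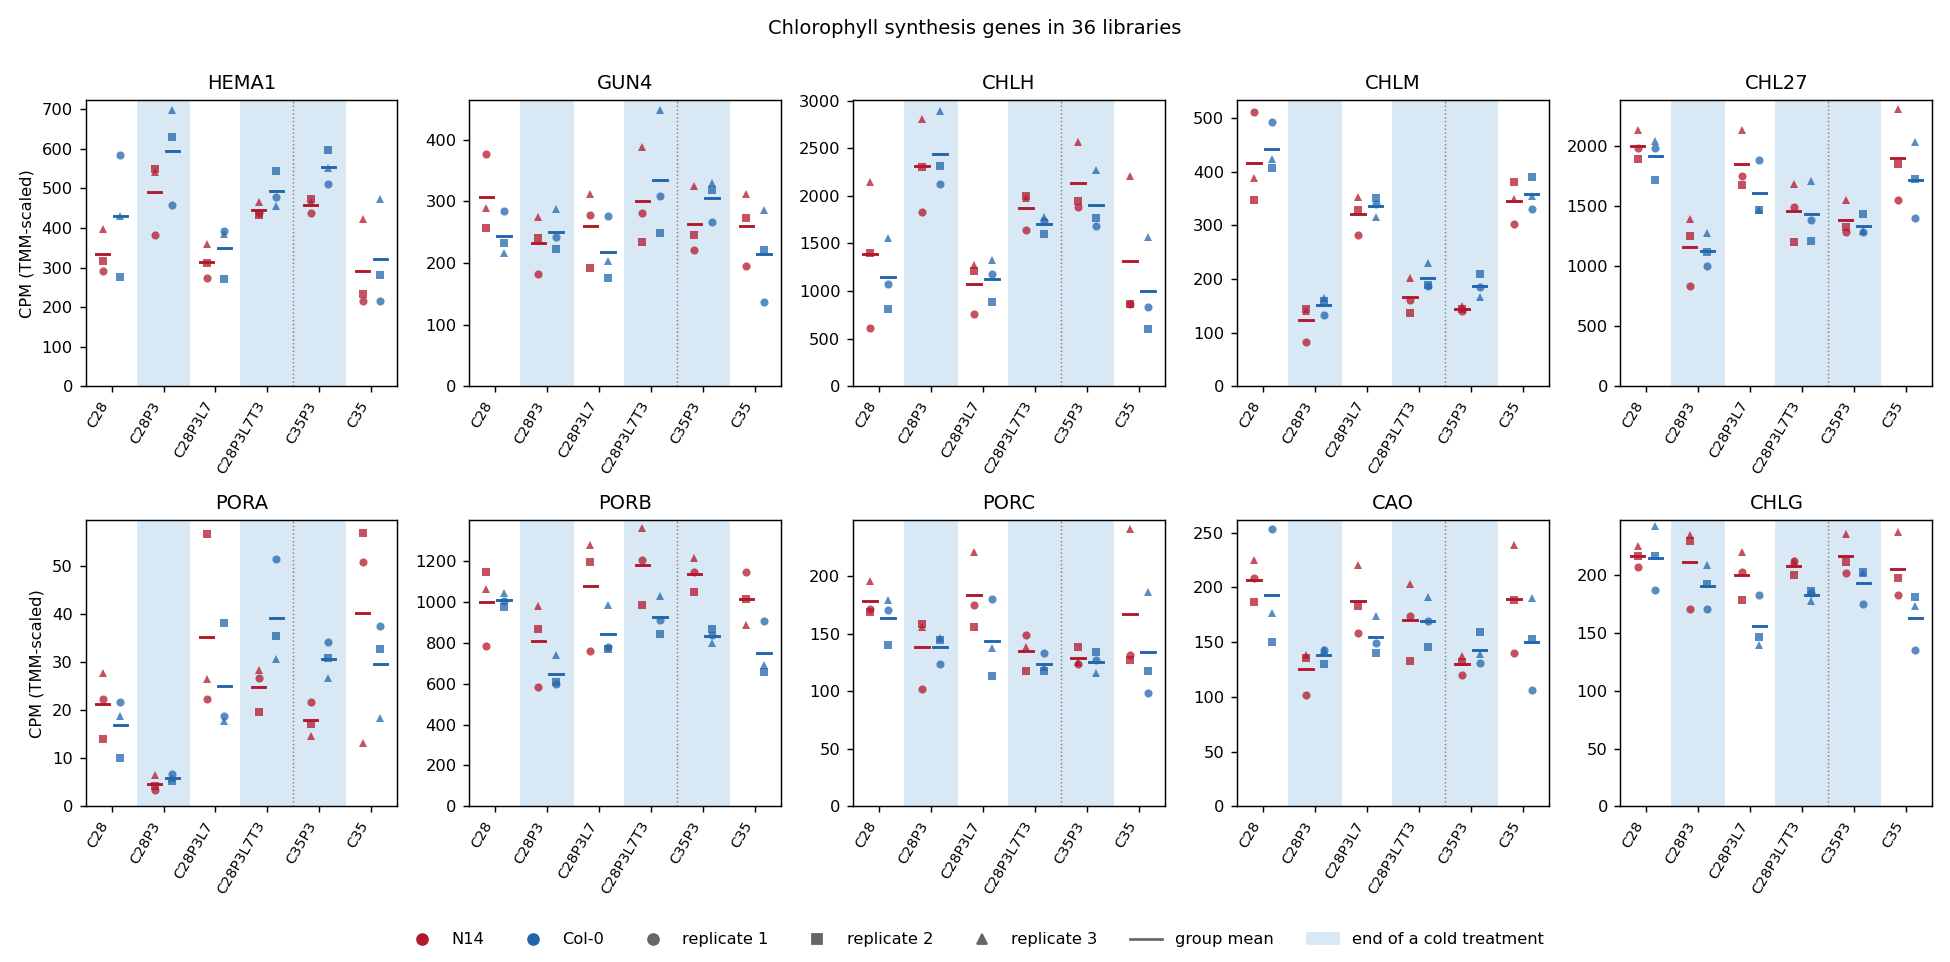
CPM of each chlorophyll synthesis gene in all 36 libraries (points, shaped by replicate number) with the mean of each group (lines), for N14 (red) and Col-0 (blue). The stages of the memory experiment run from the left and the 35-day groups stand right of the dotted line; shading marks libraries taken at the end of a cold treatment, where CHLM lay between 83.3 and 229 CPM and below every other library.

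Priming lowered CHLM, CHL27, PORA and CAO in both accessions, and raised CHLH in Col-0. In N14, 4 genes fell (CHLM, CHL27, PORA and CAO) and none rose, where 56.8% of all tested genes were called (29.2% lower and 27.6% higher). In Col-0, 5 genes fell (CHLM, CHL27, PORA, PORB and CAO) and CHLH rose, where 54.7% of all tested genes were called (28% lower and 26.7% higher). The share of members called, 4 and 6 of 10, was therefore close to that of the whole transcriptome, and the median change of the 10 genes was -0.39 in N14 and -0.36 in Col-0, against -0.03 over all genes in both accessions. A first cold treatment at 35 days lowered 4 genes (CHLM, CHL27, PORA and CAO) and raised HEMA1 in N14, where 54% of all genes were called (29% lower and 25% higher), and lowered CHLM and raised HEMA1 and CHLH in Col-0, where 51.8% were called (25.2% lower and 26.7% higher). In triggering, CHLM was the only member called in either accession, against 46.6% of all genes in N14 (24.2% lower and 22.4% higher) and 40.2% in Col-0 (18.7% lower and 21.6% higher). A fit to the compared groups alone called 1 member in N14 in the first cold at 35 days. In triggering it called 3 in N14 and 2 in Col-0. Over all genes these fits called 9482, 8775 and 7502. The members' median change was -0.17 in N14 and 0.10 in Col-0 in the first cold at 35 days, where the medians of all genes were -0.08 and 0.00. It was -0.04 in N14 and 0.18 in Col-0 in triggering, where they were -0.05 and 0.00.

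**Figure D2:**
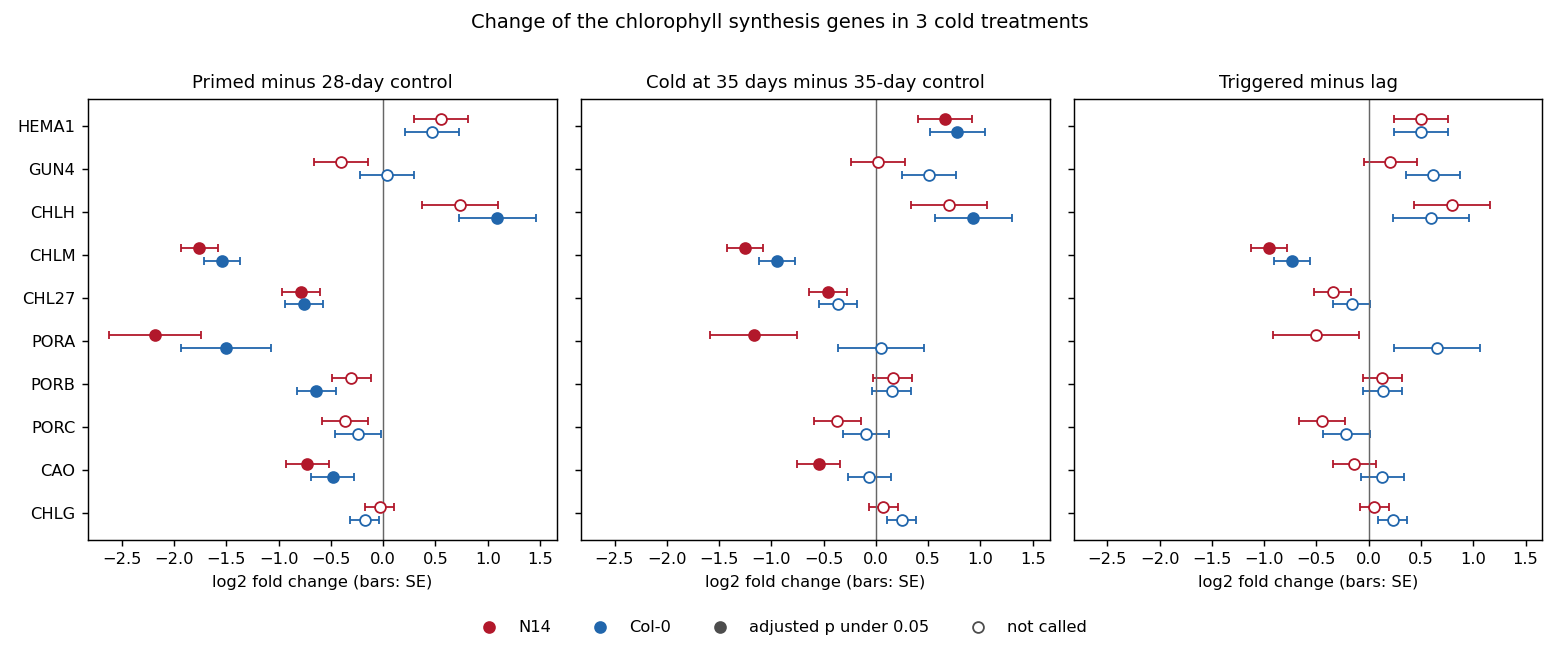
Log2 fold change (horizontal axis, bars are SE) of each chlorophyll synthesis gene in 3 cold treatments, each against its control, in N14 (red) and Col-0 (blue). Filled points have an adjusted p under 0.05; the filled point for CHLM lies left of 0 in all 6 comparisons.

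CHLM, the methyltransferase that acts on the product of magnesium chelatase, was lower after each cold treatment in both accessions. In N14 it had 83.3, 144 and 141 CPM in the 3 primed libraries, against 511, 348 and 389 CPM in the 28-day controls. In Col-0 it had 132, 159 and 164 CPM after priming and 493, 407 and 423 CPM in the controls. The groups did not overlap in either accession, and the change was -1.76 ± 0.18 in N14 (adjusted p = 4.46e-09) and -1.54 ± 0.18 in Col-0 (adjusted p = 4.15e-08). After the first cold at 35 days N14 had 139.9, 145 and 149 CPM and its controls 303, 380.5 and 349 CPM, and Col-0 had 185, 208 and 166 CPM and its controls 331, 390.4 and 355 CPM. These groups were also separate, with changes of -1.25 ± 0.17 in N14 and -0.94 ± 0.17 in Col-0.

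Within each accession triggering gave the smallest of the changes in CHLM, and whether it differed from the other changes was not tested. Triggered N14 libraries had 159.9, 136 and 202 CPM and lag libraries 282, 328 and 353 CPM, a change of -0.95 ± 0.17 (adjusted p = 6.53e-05). Triggered Col-0 libraries had 186, 189 and 229 CPM and lag libraries 339, 350.2 and 315 CPM, a change of -0.73 ± 0.17 (adjusted p = 0.00121). Over both accessions the 18 libraries taken at the end of a cold treatment ran from 83.3 to 229 CPM with a median of 159 CPM, and the 18 others from 282 to 511 CPM with a median of 352 CPM. CHLM was the one member whose cold-treated and other libraries did not overlap; of all tested genes 16.5% were separated in this way. The 6 calls for CHLM in cold and its 2 calls in recovery held under each of the 11 other settings and when any library of the compared groups was left out.

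CHL27, the cyclase subunit, fell less than CHLM. Its primed N14 libraries had 835, 1253 and 1397 CPM and the 28-day controls 1983, 1889 and 2134 CPM, a change of -0.79 ± 0.18 (adjusted p = 0.000595). In Col-0 the primed libraries had 1001, 1118 and 1273 CPM and the controls 1987, 1719 and 2041 CPM, a change of -0.76 ± 0.18 (adjusted p = 0.000884). Neither accession's groups overlapped. In the first cold at 35 days the change was -0.45 ± 0.18 in N14 (adjusted p = 0.0352) and -0.36 ± 0.18 in Col-0 (adjusted p = 0.0947). Only the one in N14 was called in this fit. The change in Col-0 was called by DESeq2 (-0.41, adjusted p = 0.0481) and without C35 replicate 1 (-0.49, adjusted p = 0.0407). The N14 call was lost without C35P3 replicate 1 (-0.40, adjusted p = 0.11), C35P3 replicate 2 (-0.42, adjusted p = 0.0965), C35 replicate 2 (-0.47, adjusted p = 0.0585) or C35 replicate 3 (-0.29, adjusted p = 0.209). In triggering CHL27 was called in neither accession, with -0.35 ± 0.18 in N14 and -0.16 ± 0.18 in Col-0. Across the 12 group means of log2 CPM, CHL27 and CHLM were correlated at 0.93, a description over groups that share the same cold treatments and libraries.

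CHLH, the large magnesium chelatase subunit, and HEMA1, the entry enzyme, stood on the other side. CHLH had 2128, 2311 and 2889 CPM in primed Col-0 libraries and 1072, 811 and 1557 CPM in their controls, groups that did not overlap, and rose by 1.09 ± 0.37 (adjusted p = 0.0135). The call was lost without control replicate 2 (0.89, adjusted p = 0.0762) or primed replicate 3 (0.95, adjusted p = 0.0531). Primed N14 libraries had 1834, 2302 and 2809.6 CPM and their controls 615, 1403 and 2149 CPM, so that the highest control lay within the primed range, and the change of 0.74 ± 0.36 was not called (adjusted p = 0.086; 1.2 with an adjusted p of 0.0123 without C28 replicate 3). CHLH also differed widely between control libraries at 35 days: it had 1879.8, 1951 and 2566 CPM in cold-treated N14 against 863, 868 and 2209 CPM in N14 controls, and 1684, 1762 and 2270.2 CPM in cold-treated Col-0 against 833, 598 and 1565 CPM in Col-0 controls. In both accessions C35 replicate 3, which also differed most from its group over all genes, stood far above the other 2 controls. Without it the N14 change was 1.3 (adjusted p = 0.00477). The change was 0.70 ± 0.36 in N14 (adjusted p = 0.106) and 0.93 ± 0.37 in Col-0 (adjusted p = 0.0341), and the Col-0 call was lost without C35 replicate 1 (0.82, adjusted p = 0.112), C35 replicate 2 (0.67, adjusted p = 0.179) or C35P3 replicate 3 (0.79, adjusted p = 0.118). In triggering the groups did not overlap, but neither 0.79 ± 0.37 in N14 nor 0.59 ± 0.36 in Col-0 was called; a fit to the compared groups alone called both (0.83, adjusted p = 0.0152, and 0.58, adjusted p = 0.0366).

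HEMA1 rose in the first cold at 35 days. N14 had 438, 473 and 466 CPM after that cold and 215, 232 and 423 CPM in controls, a change of 0.66 ± 0.26 (adjusted p = 0.0331). Col-0 had 511, 597 and 552 CPM after it and 215, 281 and 472 CPM in controls, a change of 0.78 ± 0.26 (adjusted p = 0.0135). The groups did not overlap, but both calls depended on single libraries. In Col-0 the call was lost without C35 replicate 1 (0.56, adjusted p = 0.1) or C35 replicate 2 (0.69, adjusted p = 0.0617). In N14 it was lost without any one of the 3 C35P3 libraries (0.64 to 0.69) and without C35 replicate 1 (0.49, adjusted p = 0.167) or C35 replicate 2 (0.52, adjusted p = 0.144). In priming the changes of 0.55 ± 0.26 in N14 and 0.47 ± 0.26 in Col-0 were not called, with 381, 550.1 and 542 CPM in primed N14 against 292, 318 and 396 CPM in its controls. The N14 change passed the test without C28P3 replicate 1 (0.71, adjusted p = 0.0375) or C28 replicate 3 (0.69, adjusted p = 0.0498). Primed Col-0 had 457, 630.0 and 699 CPM and its controls 583, 275 and 431 CPM; without C28 replicate 1, the highest control, the change was 0.75 (adjusted p = 0.0288). The triggered libraries of both accessions lay above all lag libraries, and the changes of 0.50 ± 0.26 in N14 and 0.50 ± 0.26 in Col-0 were not called. A fit to the compared groups alone called HEMA1 in N14 in triggering (0.54, adjusted p = 0.0151) and in priming (0.56, adjusted p = 0.0499).

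GUN4, the chelatase activator, was called in no comparison. Its largest change in cold was 0.62 ± 0.26 in triggered Col-0 (adjusted p = 0.0574), with 308, 249 and 448 CPM in triggered libraries and 277, 175 and 203 CPM after the lag. It passed the test without lag replicate 1 (0.83, adjusted p = 0.0247) or triggered replicate 2 (0.80, adjusted p = 0.0280). In the first cold at 35 days in Col-0 the change was 0.51 ± 0.26 (adjusted p = 0.102), and 0.53 with an adjusted p of 0.0497 when the replicate numbers, which paired these libraries, were added to the fit; without C35 replicate 3 it was 0.77 (adjusted p = 0.0242). The 946 bases that the annotated span of GUN4 shares with a gene on the opposite strand (AT3G59410) make its level uncertain, because the sources used here do not say whether counting used strand. CHL27 shared 147 and 259 bases with 2 genes on the opposite strand, and CHLM, PORB, PORC and CAO each shared 36 to 121 bases with 1, while HEMA1, CHLH, PORA and CHLG overlapped no annotated gene.

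The 3 oxidoreductases behaved differently from each other. PORA, known in seedlings as the form made in the dark and lost in light, was the least abundant and changed most. In N14 it had 3.33, 4.27 and 6.52 CPM after priming, against 22.4, 14.0 and 27.8 CPM in the 28-day controls, a change of -2.18 ± 0.44 (adjusted p = 0.000129). In Col-0 it had 6.64, 5.36 and 5.97 CPM after priming and 21.8, 10.1 and 18.9 CPM in controls, a change of -1.50 ± 0.43 (adjusted p = 0.00426). All 6 primed libraries lay below all 6 controls, and the calls held when each library was left out. At 35 days N14 had 21.8, 17.1 and 14.7 CPM after cold and 50.9, 56.9 and 13.2 CPM in controls, overlapping groups with a change of -1.17 ± 0.41 (adjusted p = 0.0188). This call was lost without C35 replicate 1 (-0.96, adjusted p = 0.0817), C35 replicate 2 (-0.84, adjusted p = 0.125), C35P3 replicate 2 (-1.14, adjusted p = 0.0531) or C35P3 replicate 3 (-1.05, adjusted p = 0.0726). Cold-treated Col-0 at 35 days had 34.2, 30.9 and 26.7 CPM and its controls 37.6, 32.7 and 18.4 CPM, and the change of 0.05 ± 0.41 was not called.

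In Col-0 the level of PORA after 3 days of cold differed with the age at treatment, a comparison added after the values were seen. Col-0 had 34.2, 30.9 and 26.7 CPM when treated at 35 days and 6.64, 5.36 and 5.97 CPM when treated at 28 days, a difference of 2.35 ± 0.44 (adjusted p = 0.00708, where 1.21% of all genes were called). The floral markers summed to 4.33 to 6.46 CPM in the Col-0 libraries treated at 35 days and 0.694 to 1.06 CPM in those treated at 28 days, and their part in this difference was not tested. Without C28P3 replicate 2 the difference in PORA was 2.28 with an adjusted p of 0.0699. N14 had 21.8, 17.1 and 14.7 CPM at 35 days and 3.33, 4.27 and 6.52 CPM at 28 days, again with no overlap, and its difference of 1.92 ± 0.44 was not called in edgeR (adjusted p = 0.0894, where 0.0444% of all genes were called) but was in DESeq2 (1.91, adjusted p = 0.00589). The test of whether the response itself differed between ages, which takes in the controls, gave 1.01 ± 0.59 in N14 and 1.55 ± 0.59 in Col-0, not called in either (adjusted p = 0.991 and 1, where 0% of all genes were called). At an unadjusted p under 0.05 that test held for 1 member in N14 and 4 in Col-0, of 975 and 751 genes in all, and DESeq2 called none of the members and 16 and 1 of all genes. In triggering PORA moved by -0.50 ± 0.41 in N14 and 0.65 ± 0.41 in Col-0, called in neither.

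PORB, made in seedlings and in green leaves, fell in primed Col-0, where it had 597, 607 and 739 CPM against 1006, 974 and 1044 CPM in controls (-0.64 ± 0.19, adjusted p = 0.00535). The groups did not overlap. In primed N14 it had 582, 865 and 981 CPM against 787, 1148 and 1061 CPM in controls, overlapping groups with a change of -0.30 ± 0.19 that was not called. In the other 2 cold treatments its changes lay between 0.13 and 0.16 and none was called. PORC, the form expressed in light-grown plants, was called in none of the 6 cold comparisons, with changes of -0.44 to -0.09. Among per-length counts of the 3 genes, PORB made up 82.9% to 89.2% in the 12 groups, PORC 9.37% to 16.3% and PORA 0.49% to 3.61%. PORA's share was 0.490% ± 0.0771 in primed N14 and 1.83% ± 0.681 in its controls, and 0.766% ± 0.131 in primed Col-0 and 1.41% ± 0.469 in its controls (SD, n = 3 each). The coding sequences of PORA and PORB were 83.3% identical with a longest identical run of 44 bases, so that reads within such runs could be counted for either. PORC was 74.2% identical to PORA and 74.6% to PORB, with runs of at most 20 bases.

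Of the late genes, CAO, which makes chlorophyll b, fell in priming in both accessions and in the first cold at 35 days in N14. CHLG, the chlorophyll synthase, did not pass the test in any cold comparison. In N14, CAO had 101, 136 and 138 CPM after priming and 208, 187 and 225 CPM in controls, a change of -0.72 ± 0.21 (adjusted p = 0.00403) that held when any library was left out. In Col-0 it had 143, 130.1 and 143 CPM after priming and 254, 149.9 and 177 CPM in controls, a change of -0.48 ± 0.21 (adjusted p = 0.0484). That call was lost without C28 replicate 1 (-0.24, adjusted p = 0.372), C28 replicate 3 (-0.54, adjusted p = 0.0503) or any one of the 3 primed libraries (-0.51 to -0.44). In the first cold at 35 days N14 had 119.9, 132 and 138 CPM and its controls 140.4, 189 and 239 CPM, a change of -0.55 ± 0.21 (adjusted p = 0.0273). It was lost without C35P3 replicate 1 (-0.49, adjusted p = 0.0884), C35P3 replicate 2 (-0.56, adjusted p = 0.0559), C35 replicate 2 (-0.55, adjusted p = 0.0552) or C35 replicate 3 (-0.34, adjusted p = 0.189). Col-0 changed by -0.06 ± 0.21 there, which was not called. In triggering CAO was called in neither accession. CHLG moved by -0.18 to 0.25 in the 6 cold comparisons, with an SE of 0.14 in each, and its 36 libraries ran from 135 to 242 CPM with a median of 201 CPM.

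The region upstream of the annotated gene start is shown for 4 members whose transcripts fell in priming, chosen after their values were seen. The sequences are from RefSeq's TAIR10.1 assembly, whereas the tables were made on TAIR10 and none of their coordinates were used. In the 250 bases before the start of the 10 genes, both strands were searched for 4 motifs: the G-box CACGTG, bound by bZIP and bHLH factors, the CRT/DRE core CCGAC, bound by the CBF cold regulators, CCAATC, a sequence linked to GLK factors, and AATATCT, the core of the evening element of clock-regulated genes. CHL27 and CAO each held the G-box 52 bases before the start, and CAO a second one at 32 bases, which 6.49% of the 27443 promoters of protein-coding genes held at least once. PORA, PORB and GUN4 held AATATCT, found in 10.0% of promoters. CHLH, CHL27 and CHLG held CCGAC (12% of promoters), and GUN4 and PORB held CCAATC (10.2%). CHLM and HEMA1, like PORC, held none of the 4 in this window, and no match overlapped a match of another motif. The windows of GUN4, CHLM, CHL27, PORB and PORC overlapped another annotated protein-coding gene, so a match in them may lie within that gene. The stretches below run 5′ to 3′ on the strand of each gene, 100 bases each and clear of annotated exons, with CACGTG in capitals in the first 2 and AATATCT in capitals in the others. They lie at chr3:21076405-21076504 on the plus strand for CHL27, chr1:16851272-16851371 on the minus strand for CAO, chr5:21992905-21993004 on the minus strand for PORA and chr4:13725396-13725495 on the plus strand for PORB.
CHL27: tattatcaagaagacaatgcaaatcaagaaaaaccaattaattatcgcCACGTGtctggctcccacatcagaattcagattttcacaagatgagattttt
CAO: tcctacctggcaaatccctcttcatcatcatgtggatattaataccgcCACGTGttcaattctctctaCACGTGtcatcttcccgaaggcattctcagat
PORA: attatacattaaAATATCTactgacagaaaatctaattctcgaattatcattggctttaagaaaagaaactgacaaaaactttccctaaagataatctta
PORB: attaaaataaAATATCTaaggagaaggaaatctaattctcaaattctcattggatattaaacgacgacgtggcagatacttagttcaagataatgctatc

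In the lag, the genes called in it moved the other way from priming. Lag libraries against primed ones in N14 had higher CHLM (1.39 ± 0.18), PORA (2.90 ± 0.45), CHL27 (0.67 ± 0.18) and CAO (0.58 ± 0.21) and lower CHLH (-1.10 ± 0.37) and HEMA1 (-0.64 ± 0.26), where 57.7% of all genes were called (29.9% higher and 27.8% lower). In Col-0, CHLM (1.14 ± 0.17), PORA (2.06 ± 0.43) and CHL27 (0.51 ± 0.18) were higher, and CHLH (-1.11 ± 0.37) and HEMA1 (-0.77 ± 0.26) lower, where 56.4% of all genes were called (28.2% in each direction). These values share the primed libraries with the priming comparison. Lag plants, in the comparison elsewhere named recovery, also differed from primed ones in age at sampling (38 against 31 days) and rosette label (4 against 15). Light changed with temperature as well. The effects of these differences and of the return to 20 °C cannot be told apart. PORA after the lag had 22.4, 56.7 and 26.5 CPM in N14 and 18.8, 38.3 and 17.8 CPM in Col-0, with replicate 2 the highest in both. The N14 calls lost by leaving out 1 library were HEMA1 without C28P3L7 replicate 1 or 2 or C28P3 replicate 2 or 3 (-0.64 to -0.55), CHLH without C28P3L7 replicate 1 or C28P3 replicate 3 (-0.90 and -0.94), and CAO without C28P3 replicate 1 or C28P3L7 replicate 3 (0.45 and 0.44). The Col-0 calls lost were HEMA1 without C28P3L7 replicate 2 or C28P3 replicate 3 (-0.62 and -0.64), CHLH without C28P3L7 replicate 2 (-0.97), and CHL27 without C28P3 replicate 1 or C28P3L7 replicate 1 (0.42 and 0.37). PORB passed the test in N14 without C28P3L7 replicate 1 or C28P3 replicate 3 (0.61 and 0.57, against 0.42 with all), and CHLG in Col-0 without C28P3L7 replicate 1 or C28P3 replicate 1 (-0.41 and -0.36, against -0.29 with all). DESeq2 called PORB in Col-0 (0.43, adjusted p = 0.0458).

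Lag plants against 35-day controls, the comparison that asks whether a trace of priming remained, gave no call among the 10 genes or among all genes in either accession (0% of genes). The members' changes there lay between -0.28 and 0.14 in N14 and between -0.25 and 0.18 in Col-0. edgeR had none of the 10 at an unadjusted p under 0.05, with 919 of all genes in N14 and 670 in Col-0, and DESeq2 called none of the 10, with 49 and 4 of all genes. CHLM had 282, 328 and 353 CPM in N14 after the lag, against 303, 380.5 and 349 CPM in 35-day controls. Lag plants were 38 days old at sampling and had spent 3 of those days in the cold, so they differ from the 35-day controls also in age. Night temperature was a further difference, at 18 °C in the lag against 16 °C in growth. The second cold against the first one at 35 days called none of the 10 in either accession, also at an unadjusted p under 0.05 and in DESeq2; 0.00494% of all genes were called in N14 and 0% in Col-0, with 1765 and 937 at an unadjusted p under 0.05 and 181 and 3 called by DESeq2. The largest differences of the members were 0.48 ± 0.41 for PORA in N14 and 0.36 ± 0.41 for PORA in Col-0. Between the 35-day and 28-day controls none of the 10 was called either, where 0.0197% of genes were called in N14 and 3.41% in Col-0. At an unadjusted p under 0.05 that comparison held for 1 member in N14 and 2 in Col-0, with 1875 and 4212 of all genes. DESeq2 called none of the 10, with 138 and 1189 of all genes.

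In the fit to all 36 libraries N14 did not pass the test against Col-0 for any of the 10 genes in any of the 6 conditions, where the share of all genes called was 12.3% in the 28-day controls, 11.1% after priming, 15.7% after the lag, 14% after triggering, 14% in the 35-day controls and 14.1% after cold at 35 days. edgeR found 0 to 2 of the 10 at an unadjusted p under 0.05 in each condition, with 4331 to 5524 of all genes. DESeq2 called none of the 10, with 2553 to 3311 of all genes. The replicate numbers paired the N14 and Col-0 libraries (every correlation of deviations over 0.1) in all conditions but the 28-day controls. With the replicate numbers added to the fit, none of the 10 was called in any condition. A fit to the 2 compared groups alone called 4 members after cold at 35 days (HEMA1, CHLM, PORA and PORB, adjusted p of 0.00238 to 0.03). Over all genes that fit called 5575. The TopHat and BWA tables called CHLG after the lag (0.39 and 0.40), where they called 3322 and 3445 of all genes. PORA had the largest difference, -0.77 ± 0.41 after cold at 35 days (adjusted p = 0.248), with 21.8, 17.1 and 14.7 CPM in N14 and 34.2, 30.9 and 26.7 CPM in Col-0, groups that did not overlap. PORB after the same cold had 1145, 1046 and 1216 CPM in N14 and 838, 868 and 799.8 CPM in Col-0, groups that did not overlap, with a difference of 0.44 ± 0.19 (adjusted p = 0.124). CHLG after the lag had 203, 178 and 220.4 CPM in N14 and 183, 147 and 139 CPM in Col-0 (0.36 ± 0.14, adjusted p = 0.0779), and without C28P3L7 Col-0 replicate 1 the difference was 0.49 with an adjusted p of 0.0253. The response to cold did not pass the test of a difference between accessions for any member, where 0.301%, 0.266% and 0.262% of all genes were called for priming, the first cold at 35 days and triggering. At an unadjusted p under 0.05 that test held for 1 member in the first cold at 35 days and none in the others. Over all genes it held for 1436 in priming, 1670 in the first cold at 35 days and 1673 in triggering. DESeq2 called none of the 10, with 182, 164 and 155 of all genes. PORA had the largest values, with N14 minus Col-0 differences in response of -0.68 ± 0.60, -1.22 ± 0.58 and -1.15 ± 0.58.

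HEMA1 was the member whose level depended on the accession and the mapping together. In N14 the HEMA1 count was 75.1% of the STAR count in the BWA table, 87.9% in the TopHat table and 89.7% in the RSEM table (medians over 18 libraries), against 98.5%, 99.3% and 98.3% in Col-0. The CLC, kallisto and Salmon tables gave 98.5% to 101% in N14 and 99.0% to 100% in Col-0. For the other 9 members every table's median lay within 98% to 101% of STAR in both accessions. The reads had been assigned to TAIR10, an assembly of Col-0, and the part of sequence differences between the accessions in these values was not tested. In the STAR table HEMA1 was lower in N14 than in Col-0 in all 6 conditions, with differences of -0.36 to -0.14, and was called in none.

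**Figure D3:**
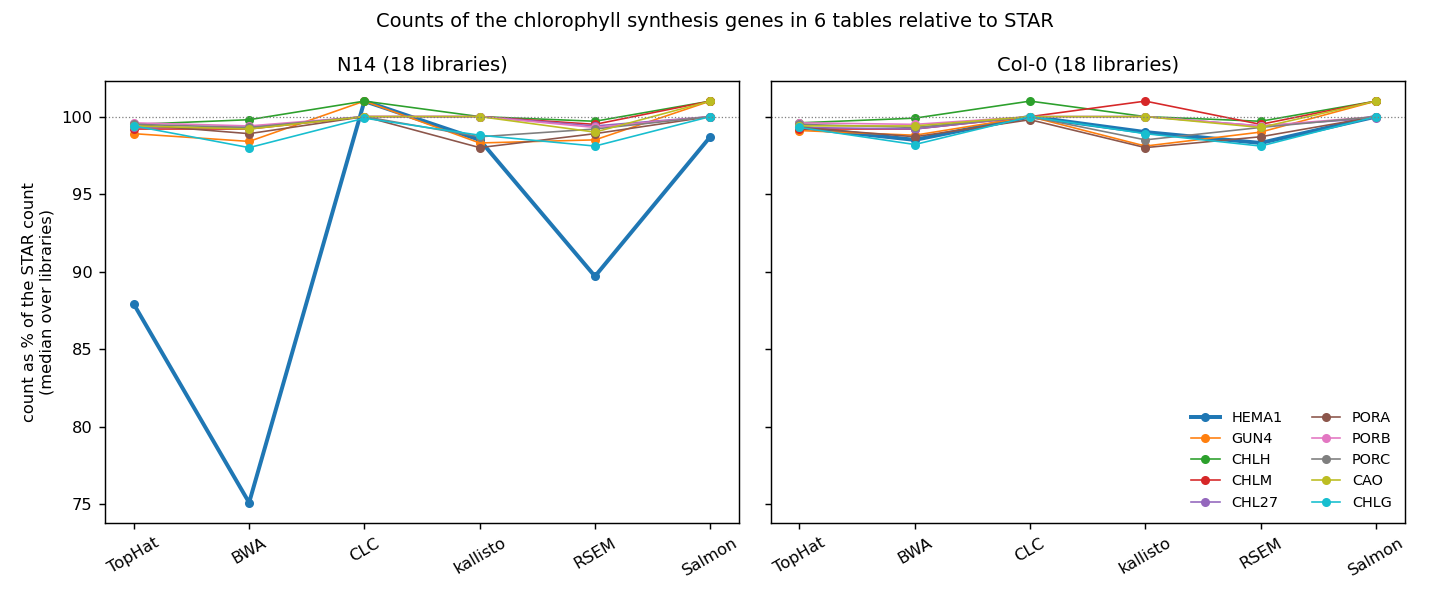
Count of each chlorophyll synthesis gene in 6 other count tables as a percent of its STAR count (vertical axis, median over 18 libraries), for N14 (left) and Col-0 (right); the dotted line marks equal counts. In N14 the HEMA1 line drops to 75.1% in the BWA table, while the other lines stay within 98% to 101%.

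In priming 29.2% of all genes fell and 27.6% rose in N14, and 28% fell and 26.7% rose in Col-0, the shares beside which the counts in 5 other gene lists of tetrapyrrole metabolism stand. Of 13 other tested genes of the upper pathway, which makes protoporphyrin IX, 7 fell and 2 rose in primed N14, and 9 fell and 2 rose in primed Col-0, with median changes of -0.72 and -0.79. HEMD, uroporphyrinogen III synthase, changed by -1.70 ± 0.15 in N14 and -1.64 ± 0.15 in Col-0. HEME1, a uroporphyrinogen decarboxylase, changed by -1.21 ± 0.17 and -1.21 ± 0.16, and HEMB1, an aminolevulinate dehydratase, by -1.03 ± 0.11 and -1.01 ± 0.11. HEMA3, a paralog of HEMA1, rose in both but was scarce, with means of 0.80 CPM in primed and 0.336 CPM in control N14. Its call in N14 (1.21 ± 0.49, adjusted p = 0.0375, overlapping groups) was lost in the BWA and RSEM tables, in the compared groups alone, and without C28 replicate 1 or 3 or C28P3 replicate 2 or 3 (0.92 to 1.14). Of 10 other genes of the magnesium branch, 6 fell in primed N14 and 5 in primed Col-0 and none rose, so that the share called was close to the 56.8% and 54.7% of all genes. FLU, which holds back glutamyl-tRNA reductase, changed by -1.15 ± 0.14 in N14 and -0.98 ± 0.14 in Col-0, and LCAA, another cyclase subunit, by -0.84 ± 0.17 and -0.82 ± 0.17. In the first cold at 35 days the upper pathway had 7 genes lower and 1 higher in N14, and 6 lower and 3 higher in Col-0, where 54% and 51.8% of all genes were called. In triggering it had 7 genes lower and 2 higher in N14, and 5 lower and 2 higher in Col-0, where 46.6% and 40.2% of all genes were called.

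**Figure D4:**
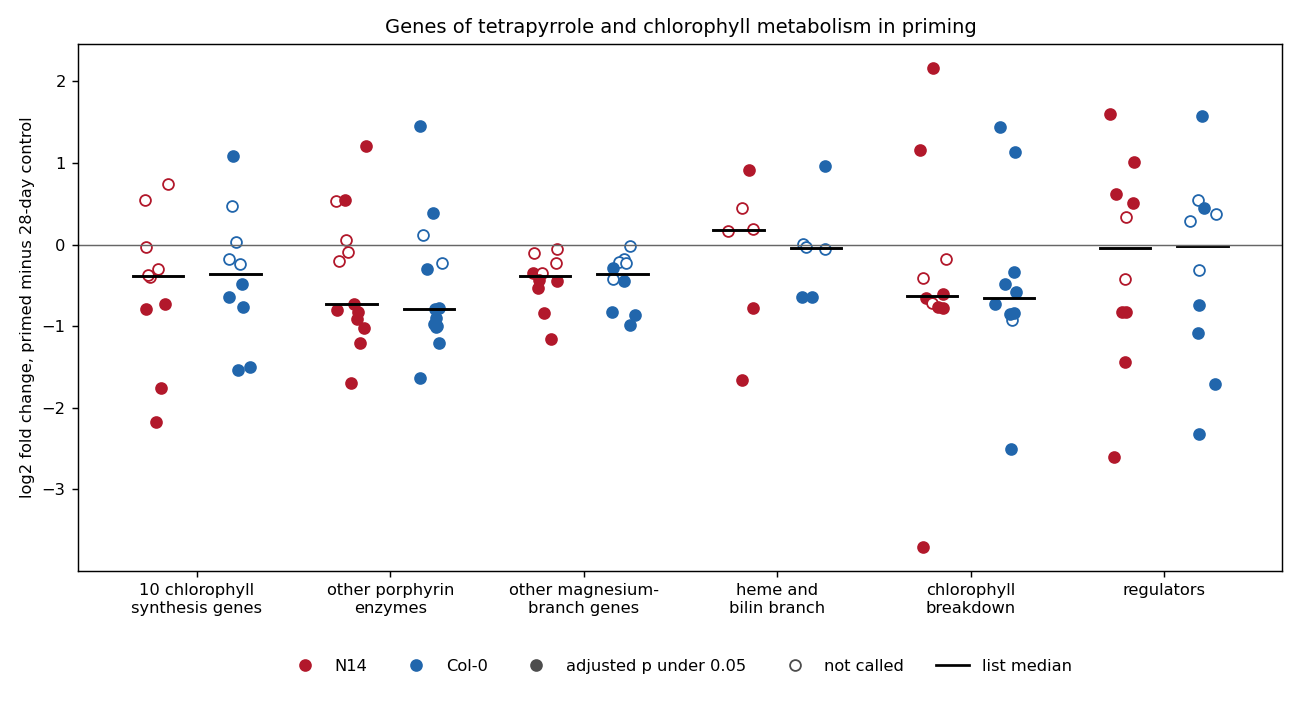
Log2 fold change in priming (vertical axis) of the 10 chlorophyll synthesis genes and of 5 other gene lists of tetrapyrrole metabolism, each point a gene, in N14 (red) and Col-0 (blue). Filled points have an adjusted p under 0.05 and black lines are list medians, which for the other porphyrin enzymes lie at -0.72 in N14 and -0.79 in Col-0.

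On the heme side 2 of 6 genes fell and 1 rose in priming in both accessions, close to the 56.8% of all genes called in N14 and 54.7% in Col-0. HO3, a heme oxygenase, fell in both. Its change in N14 was -1.66 ± 0.27 (adjusted p = 1.09e-05), with means of 2.43 CPM in primed and 7.70 CPM in control libraries. That call held under each other setting and when any library was left out. The HO3 call in Col-0 (-0.64 ± 0.27, adjusted p = 0.0476) was lost when any one library was left out, in the Salmon table and without a filter on low counts. FC1, a ferrochelatase, rose by 0.91 ± 0.24 in N14 and 0.96 ± 0.24 in Col-0. HO1, a heme oxygenase of the route to the phytochrome chromophore, changed by -0.77 ± 0.12 and -0.65 ± 0.12. Of 10 genes of chlorophyll breakdown, 5 fell and 2 rose in primed N14, and 7 fell and 2 rose in primed Col-0, against the same 56.8% and 54.7% of all genes called. CLH1, a chlorophyllase, changed by -3.71 ± 0.46 in N14 and -2.51 ± 0.44 in Col-0, whereas its relative CLH2 rose by 2.17 ± 0.44 and 1.44 ± 0.40. HCAR, which returns chlorophyll b derivatives to the a form, rose by 1.16 ± 0.26 and 1.13 ± 0.26. Of 10 regulators, 4 rose and 4 fell in primed N14, and 2 rose and 4 fell in primed Col-0, beside 56.8% and 54.7% of all genes called. GLK2, an activator of chloroplast genes, changed by -2.61 ± 0.18 in N14 and -2.33 ± 0.18 in Col-0, and PIF1, a phytochrome-interacting factor degraded in light, by -1.44 ± 0.17 and -1.72 ± 0.17. CGA1, a GATA factor, rose by 1.61 ± 0.34 and 1.58 ± 0.34. None of the genes in these 5 lists was called between lag plants and 35-day controls in either accession, where 0% of all genes were called.

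By the pattern of its 12 group means of log2 CPM, each member had near neighbours among 11455 other genes, those tested whose log2 CPM averaged 3 or more. The highest Pearson correlations were 0.994 for HEMA1 with VIM3, 0.993 for CHLM with RABA5b, 0.991 for CHLH with ICU2, 0.985 for CHL27 with AT1G67700 and 0.977 for PORC with PHP. PORA followed AT4G16060 (0.972), VAMP721 (0.967) and COL5 (0.952) most closely. CHLG was nearest to AT1G04420 (0.943), CAO to AT1G42480 (0.938), PORB to AT4G17360 (0.933) and GUN4 to AT2G26680 (0.911). Within the 10 genes CHLH ran against CHLM (-0.939) and CHL27 (-0.888) and with HEMA1 (0.871). These are descriptions over 12 groups that share libraries and cold treatments.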

How the data were processed

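Gene counts of the 36 libraries came from the STAR table, which holds raw counts as deposited by the authors, on TAIR10 per the submitters' processing notes. Those notes name, for mapping, STAR 2.5.2a, TopHat2 2.1.1 and BWA 0.7.13, for counting, HTSeq 0.7.2 and SAMtools 1.3, and for quantification, Salmon 0.6.0, kallisto 0.42.5 and RSEM 1.2.30. The sources used here do not say whether counting used strand. The TopHat, BWA and CLC tables also hold counts, and the kallisto, RSEM and Salmon tables expected counts as deposited by the authors, rounded here before use. Genes passing filterByExpr were TMM-scaled and fitted in edgeR 4.0.16 (R 4.3.3) with a mean for each of 12 groups. DESeq2 1.42.0, the 6 other tables, other scaling, no filter, the compared groups alone, the replicate block and leaving out each library were alternatives. The fit was tested on simulated data. The 10 genes and all lists were chosen with earlier results of these data known; 4 of 27 comparisons were added after values were seen. All 10 members are named, with at most 4 called genes of each other list per comparison. Log2 CPM used a prior count of 2. Libraries held 17861514 to 31046237 counts. The replicate numbers paired the libraries (every correlation of deviations over 0.1) in 6 of 22 comparisons. Upstream sequences are from RefSeq TAIR10.1, read with Biopython 1.88.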

Additional observations from a re-analysis of the deposited data

How the results depend on the processing

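None of the members' changes called in a comparison turned its direction under another setting. Counts of the 10 genes called moved by more than 1.5 times in these cases, each against the count given above. A fit to the compared groups alone called 1 in the first cold at 35 days in N14, 3 in triggering in N14 and 2 in triggering in Col-0. It called 4 between N14 and Col-0 after cold at 35 days. Over all genes these fits called 9482, 8775, 7502 and 5575. Without a filter on low counts the first cold at 35 days in N14 had 3, with 10586 of all genes. The TopHat and BWA tables called 1 each between N14 and Col-0 after the lag (CHLG), with 3322 and 3445 of all genes. DESeq2 called 1 (PORA) in N14 between cold at 35 and at 28 days, with 83 of all genes. With the replicate block, triggering had 2 in N14 (CHLH added, 0.82) and 2 in Col-0 (GUN4 added, 0.58). Over all genes the block fit called 9762 and 8525 there. CHLH also passed in N14 in priming (0.81) and the first cold at 35 days (0.79), HEMA1 in N14 in priming (0.56) and PORB in N14 in recovery (0.42). No call of the 10 genes was lost to the block, though those of HO3 in priming and CHLI2 in triggering were, both in Col-0. The correlation of same-numbered libraries ran from -0.356 to 0.649. The CAO call in primed Col-0 was lost in 4 of 11 settings: the CLC and RSEM tables, no filter and the compared groups alone. HEMA1, CHL27, PORA and CAO lost their call in the first cold at 35 days in N14 in the compared groups alone, and CHL27 and CAO also without a filter. The cause was not tested.

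Leaving out 1 library at a time, the count in N14 ran from 4 to 6 in priming, 1 to 4 in the first cold at 35 days, 1 to 1 in triggering and 5 to 5 in recovery. In Col-0 it ran from 4 to 6 in priming, 1 to 4 in the first cold at 35 days, 1 to 2 in triggering and 3 to 5 in recovery. It was 0 to 1 between N14 and Col-0 after the lag and for cold at 35 against 28 days in Col-0, and 0 in all other comparisons. In these fits a group left with 2 libraries shares the spread of all groups. Counts of 89 to 1573 per library limit PORA more than the other members, whose lowest count was 2140.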
